A study of Mus musculus with 9 samples.

Results

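The keratins and the junction genes of epithelium were followed on 9 arrays of the developing mouse jaw joint and whole embryo. The set was a named list of 35 genes: 11 keratins, 5 regulators of epithelial identity, 9 desmosome genes, 5 genes of adherens and tight junctions and 5 genes of hemidesmosomes and basement membrane. All probe sets annotated to these symbols were taken, which gave 61 probe sets for 34 of the 35 genes, out of 18193 genes measured. Dsg3 was not analysed here.

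The tissue was the temporomandibular joint, the hinge between the lower jaw and the skull, taken from mouse embryos at embryonic day 16.5. Its condyle is the rounded end of the lower jaw and its fossa the hollow in the skull that receives it. Condyle, fossa and whole body each gave 3 arrays. Per the labels' protocols, the tissue of all 9 samples was frozen without fixation and cut out by laser, total RNA was isolated with a kit for small samples, and biotin-labelled cRNA was hybridised to the Affymetrix Mouse 430 2.0 array. No strain, genotype or treatment other than the capture is named in the labels, and the series' text calls the samples biological triplicates without saying which embryo each came from. P-values therefore measure the spread between these samples. The labels say whole body without listing the organs captured. Krt10, an epithelial keratin, read 13.66 to 13.99 on the whole body arrays. The group is thus a reference with its own epithelium and not an epithelium-free control.

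Keratins are paired filament proteins that epithelial cells make in patterns set by the layer they are in. Basal cells of stratified epithelium, attached to the basement membrane by hemidesmosomes, make Krt5 and Krt14. Cells that leave the basal layer switch to Krt1 and Krt10 in skin or to Krt4 and Krt13 in oral and other mucosa, while single-layered epithelia make Krt8, Krt18 and Krt19. Desmosomes bind keratin filaments of neighbouring cells together, and the transcription factor p63, encoded by Trp63, is needed for stratified epithelium to form. Cartilage, bone and the mesenchyme around them are not known for keratins of the stratified kind.

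Fossa array 2 stood apart from all other joint arrays in these genes, and results that rest on it are given with and without it. This array was singled out by its values in these same genes, so p-values from fits without it are descriptive only. The mean log2 intensity of the 34 genes was 4.22 on fossa 2, against 7.01 on fossa 1 and 6.54 on fossa 3. It lay between 6.33 and 7.41 on the 3 condyle arrays and between 5.86 and 5.9997 on the 3 whole body arrays. The array as a whole was not dim: 43.8% of its probe sets lay above background, within the range of 30.3% to 46.9% on the other 8 arrays. The lowest share, 30.3%, was that of fossa 1, where background was also highest at 3.52. On fossa 2 the 3 prime minus 5 prime difference of the Gapdh controls, which grows as RNA degrades, was 4.97 on the log2 scale. This lay within the range of 3.69 to 6.86 on the other 8 arrays. The probe set for 18S ribosomal RNA read 5.90 to 9.75 on the 6 joint arrays and 14.27 to 14.42 on the whole body arrays, and its part in the comparisons with whole body was not tested. In bulk samples such as these, fewer cells of a type and less RNA per cell cannot be told apart.

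Cartilage markers were read to set the joint samples against whole body. Of 11 measured, 9 were called higher than whole body in condyle, against 9.34% of all genes, and 9 in fossa, against 3.99%. Between condyle and fossa 1 was called, against 18.9%, with a median difference of -0.11. These markers therefore do not check the condyle and fossa labels against each other. Fossa 2 was the highest fossa array for 9 of the 11, a count with no share of all genes beside it. Background was set on each array by the brightest of 27 bacterial control probe sets, at 2.87 to 3.52 on the log2 scale. Of the 34 genes, 32 were above it on at least 1 array and 21 on all 9. Cldn6, a claudin of tight junctions, and Itgb4, the beta subunit of the hemidesmosome integrin, were at or under it on every array. On single arrays the number above background was 24 on fossa 2 and 28 and 29 on the other fossa arrays, 28 to 32 in condyle and 24 to 28 in whole body.

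The promoters of 3 keratins that stand for the layers are shown here because these genes carry the results below: Krt5 for the basal layer, Krt10 for the layers above it in skin and Krt18 for simple epithelium. Each is the 250 bases before the gene's start in the RefSeq annotation of GRCm38.p6, 5′ to 3′ on the gene's strand. Krt5 lies at chr15:101712906-101713155 on the minus strand, Krt10 at chr11:99389365-99389614 on the minus strand and Krt18 at chr15:102027966-102028215 on the plus strand. Capitals mark TATAAA in Krt10, 26 to 21 bases before the start, and a match to the AP-2 motif GCCNNNGGC in Krt18, 83 to 75 bases before the start.
Krt5: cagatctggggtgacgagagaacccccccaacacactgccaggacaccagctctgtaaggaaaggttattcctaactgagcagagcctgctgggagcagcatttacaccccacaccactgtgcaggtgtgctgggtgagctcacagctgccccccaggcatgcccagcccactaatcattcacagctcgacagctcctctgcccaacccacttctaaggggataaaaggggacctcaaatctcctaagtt
Krt10: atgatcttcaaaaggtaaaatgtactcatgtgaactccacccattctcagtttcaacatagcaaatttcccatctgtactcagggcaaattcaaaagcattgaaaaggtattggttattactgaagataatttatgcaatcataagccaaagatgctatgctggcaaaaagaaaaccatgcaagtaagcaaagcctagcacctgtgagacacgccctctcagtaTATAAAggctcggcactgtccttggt
Krt18: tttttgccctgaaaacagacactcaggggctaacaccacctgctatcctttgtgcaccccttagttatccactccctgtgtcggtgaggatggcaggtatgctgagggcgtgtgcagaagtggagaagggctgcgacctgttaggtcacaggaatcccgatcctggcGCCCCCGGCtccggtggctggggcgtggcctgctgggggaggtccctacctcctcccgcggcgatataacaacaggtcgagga

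Both strands of 19 promoters of 16 member genes were searched for 4 motifs, beside 32851 promoters of the same length. The AP-2 motif stood in 2 of the 19, those of Dsp and Krt18, and in 13.7% of all promoters. TATAAA stood in 2, of Col17a1 and Krt10, and in 12.4% of all. The AP-1 motif TGANTCA stood in 2, both of Krt13, and in 6.75% of all. The Grainyhead-like motif AACCGGTT, that of the family of Grhl2 and Grhl3, stood in 0 of the 19 and in 0.116% of all. A match describes letters only. In the 3 sequences shown, the 2 matches marked are the only ones to these motifs.

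The basal keratins were high in condyle and in 2 of the 3 fossa arrays, and low on fossa 2. Krt5, the keratin of the basal cell layer, had log2 intensities of 9.85, 11.15 and 11.38 on condyle arrays 1 to 3. In fossa it was 10.34, 5.36 and 10.45, and in whole body 6.44, 6.88 and 6.12. All condyle arrays and fossa 1 and 3 thus lay above whole body, and fossa 2 lay below all 3 whole body arrays. Krt14, the partner of Krt5 in the filament, was 7.71, 8.79 and 8.08 in condyle, 8.88, 3.58 and 8.26 in fossa and 5.63, 5.93 and 5.55 in whole body. As for Krt5, the condyle arrays and fossa 1 and 3 lay above whole body, and fossa 2 was again lowest of all 9. The order among the higher joint arrays differed between the 2 genes.

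Krt15, a basal keratin without a fixed partner, was 8.74, 10.59 and 9.35 in condyle, 9.69, 4.80 and 9.83 in fossa and 7.81, 7.34 and 7.64 in whole body. Fossa 2 lay 4.89 log2 units under the lower of the other fossa arrays for Krt15, 4.98 for Krt5 and 4.69 for Krt14, which is 29.6-fold, 31.6-fold and 25.7-fold. Krt17, a keratin of hair follicles and of injured or periderm-like epithelium, did not share this pattern. It was 3.73, 5.57 and 3.79 in condyle, 4.66, 2.92 and 3.00 in fossa and 3.95, 3.91 and 3.90 in whole body, so fossa 2 and fossa 3 were alike and close to background. One more probe set is annotated to both Krt17 and Krt14. It read 2.24 to 2.33 on every array and was not used.

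**Figure D1:**
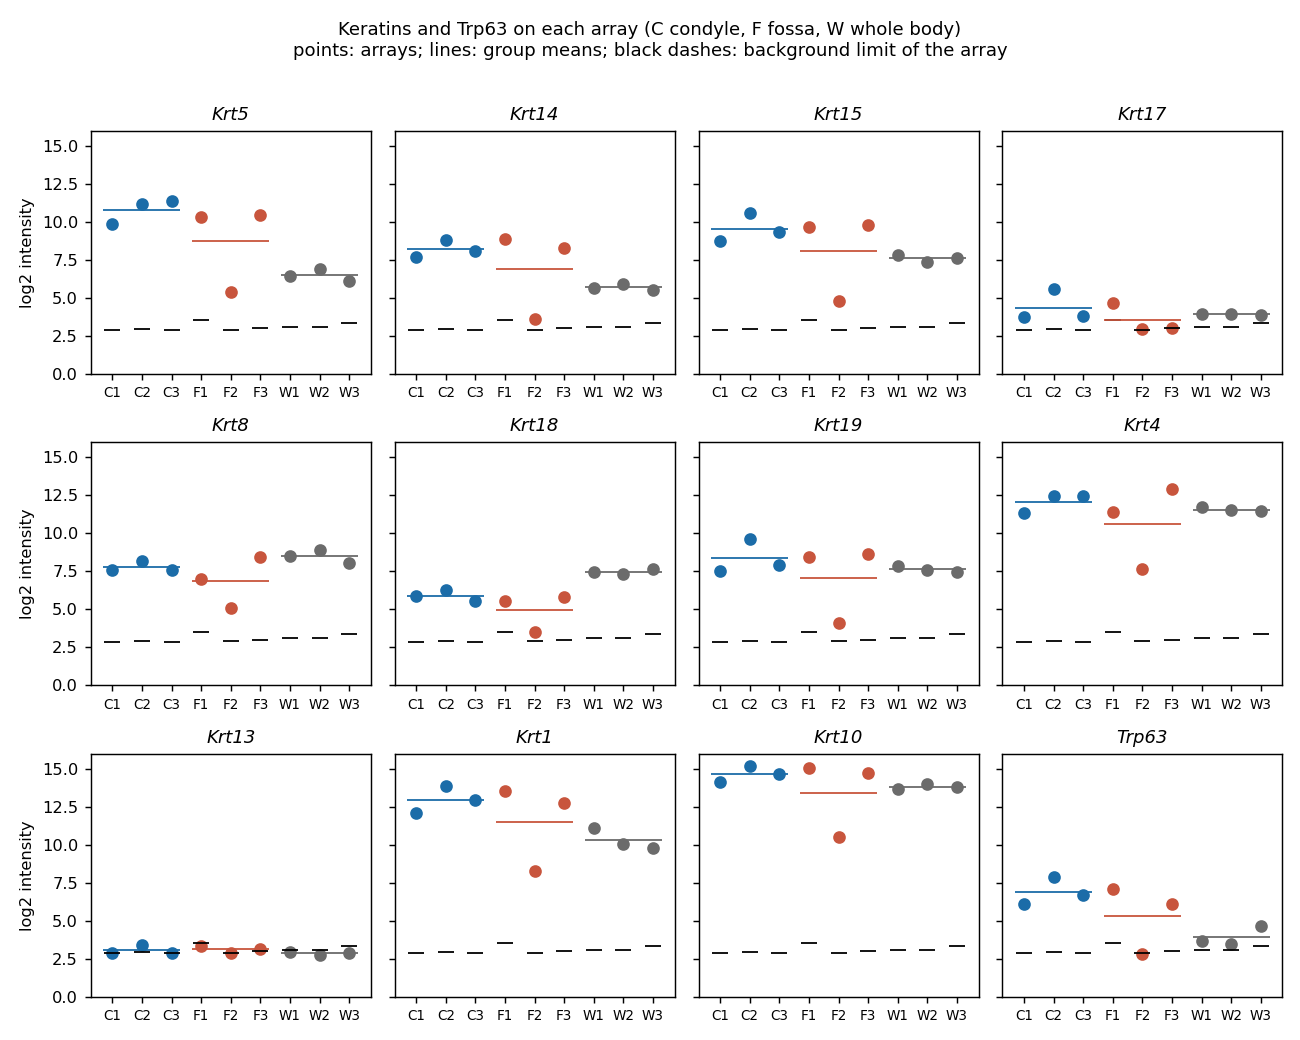
Log2 intensity of the keratins and Trp63 on the 9 arrays, with points for arrays, lines for group means and black dashes for each array's background limit. Fossa array 2 is the lowest joint array in nearly every panel, as for Krt5 at 5.36, while the whole body points lie close together.

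The epidermal keratins of the suprabasal layers followed the basal ones. Krt1 was 12.11, 13.87 and 12.93 in condyle, 13.52, 8.25 and 12.77 in fossa and 11.09, 10.06 and 9.80 in whole body. Krt10, which pairs with Krt1 and whose promoter is shown above, was 14.11, 15.19 and 14.64 in condyle, 15.03, 10.52 and 14.73 in fossa and 13.66, 13.99 and 13.82 in whole body. Condyle arrays lay above all whole body arrays for both genes. Fossa 2 lay below all whole body arrays for both, by 23.0-fold for Krt1 and 18.5-fold for Krt10 under the lower of fossa 1 and 3.

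Of the mucosal keratins, Krt4 was high on all arrays but fossa 2 and Krt13 was near background. Krt4 read 11.36, 12.47 and 12.46 in condyle, 11.38, 7.63 and 12.92 in fossa and 11.71, 11.51 and 11.49 in whole body. Condyle and whole body overlapped for Krt4, unlike for Krt1, Krt5, Krt10, Krt14 and Krt15. A dimmer probe set of Krt4 gave 7.17, 7.60 and 8.19 in condyle, 5.84, 2.67 and 8.13 in fossa and 5.20, 5.67 and 5.12 in whole body, so there condyle lay above whole body on every array. Krt13, its partner, was 2.89, 3.44 and 2.86 in condyle, 3.37, 2.90 and 3.14 in fossa and 2.96, 2.75 and 2.89 in whole body. It was above background on 2 condyle arrays, 2 fossa arrays and no whole body array.

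Of the simple keratins, Krt18 lay below whole body on every joint array and Krt8 below all whole body arrays on 4 of 6, while Krt19 lay above all of them on 4 of 6. Krt8 was 7.61, 8.17 and 7.62 in condyle, 7.01, 5.12 and 8.42 in fossa and 8.53, 8.90 and 8.04 in whole body. Krt18, the partner of Krt8, was 5.89, 6.29 and 5.55 in condyle, 5.54, 3.53 and 5.79 in fossa and 7.43, 7.33 and 7.64 in whole body. All 6 joint arrays lay below all whole body arrays for Krt18, and fossa 2 lay lowest by 4.03-fold. Krt19, found in simple and in some basal cells, was 7.51, 9.61 and 7.93 in condyle, 8.44, 4.13 and 8.67 in fossa and 7.86, 7.61 and 7.46 in whole body. Its gap on fossa 2, 4.31 log2 units under the lower of the others, was closer in size to that of Krt5 than to the 1.89 of Krt8 and 2.01 of Krt18. Whether these gaps differ was not tested, since each rests on 1 array.

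Among the regulators, Trp63 moved with the basal keratins. It was 6.13, 7.85 and 6.68 in condyle, 7.12, 2.79 and 6.10 in fossa and 3.68, 3.46 and 4.66 in whole body. Fossa 2 was at background for Trp63 on its brightest probe set, at least 9.27-fold below the other fossa arrays, and was the lowest of the 9 arrays. Its other 3 probe sets lay at or near background. Esrp1, a splicing factor of epithelial cells, was 7.36, 8.79 and 7.78 in condyle, 8.29, 2.91 and 6.76 in fossa and 6.68, 6.73 and 6.36 in whole body. Grhl3, a Grainyhead-like factor of the skin barrier, was 3.69, 5.70 and 4.34 in condyle, 4.95, 2.28 and 4.28 in fossa and 3.24, 3.28 and 2.95 in whole body, with fossa 2 at background. Condyle lay above whole body on all arrays for both genes. Sfn, the epithelial 14-3-3 protein, was highest on fossa 1 at 6.08 and lay between 3.43 and 4.70 elsewhere. Grhl2, the other Grainyhead-like factor, stayed between 2.55 and 2.99 on all arrays, and no fossa or whole body array was above background.

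Fossa 2 was the lowest fossa array for all 8 desmosome genes measured, and lay over 2 log2 units below both others for 5. Dsp, the plakin that ties keratin filaments to the plaque, was 11.60, 12.89 and 12.02 in condyle, 12.83, 8.16 and 11.79 in fossa and 11.51, 11.66 and 11.57 in whole body. Pkp1, a plakophilin of suprabasal desmosomes, was 8.81, 10.73 and 9.47 in condyle, 11.57, 5.49 and 10.003 in fossa and 7.71, 8.14 and 7.91 in whole body. Perp, a membrane protein of desmosomes and a known target of p63, was 11.39, 12.82 and 11.45 in condyle, 12.16, 6.96 and 11.77 in fossa and 11.33, 11.25 and 11.32 in whole body. For Perp the lowest condyle array and the highest whole body array nearly met, and fossa 2 lay 28.0-fold under the lower of the other fossa arrays.

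In fossa the desmosomal cadherins measured from the set, Dsc3, Dsg2 and Dsc2, were spread by less than Dsp, Pkp1 and Perp. This does not hold for all desmosomal cadherins. Outside the set, Dsc1 was 10.64, 5.08 and 9.35 in fossa and Dsg1a was 6.83, 2.93 and 5.66. Dsc3, a desmocollin of basal cells, was 5.66, 7.72 and 7.31 in condyle, 6.48, 3.47 and 6.01 in fossa and 4.29, 5.77 and 3.60 in whole body. Dsg2 and Dsc2, the desmoglein and desmocollin of simple epithelium that also occur in heart, lay at 3.96 and 3.30 on fossa 2, 3.06-fold and 3.35-fold under the lower of the other fossa arrays. Pkp3, a plakophilin of most epithelia, lay 4.09-fold under it, at 3.16. Jup, plakoglobin, was 4.20, 4.90 and 4.36 in condyle, 3.58, 2.58 and 3.44 in fossa and 3.95, 3.92 and 3.04 in whole body, with fossa 2 and 1 whole body array at background.

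The adherens and tight junction genes did not share 1 pattern. Cdh1, E-cadherin, was 7.20, 8.50 and 7.53 in condyle, 8.20, 5.39 and 7.11 in fossa and 7.22, 6.75 and 6.86 in whole body, so fossa 2 lay 3.29-fold under the lower of the other fossa arrays. Cdh3, P-cadherin of the basal layer, was 5.30, 3.71 and 4.08 in fossa and at most 3.00 on every condyle and whole body array, where only condyle 2 was above background. Fossa 2 thus shared Cdh3 with the other fossa arrays. A second Cdh3 probe set was at most 3.67 on any array and did not show this. Epcam, an epithelial adhesion protein, was measured by 2 probe sets that disagreed. The brighter was 5.24, 4.78 and 4.78 in condyle, 3.81, 3.69 and 3.77 in fossa and 5.14, 5.16 and 5.10 in whole body. The other was 3.83, 5.20 and 3.93 in condyle, 5.36, 3.38 and 4.32 in fossa and 3.85, 4.32 and 3.94 in whole body. On it fossa 2 was the lowest of all arrays, as for Krt5 and Krt14, but condyle overlapped whole body. Cldn7, a claudin of simple and stratified epithelia, was 2.68 to 3.23 in the joint and 3.16 to 4.54 in whole body.

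Of the genes that fix epithelium to its basement membrane, Lad1 showed the widest swing and Itga6 ran the other way. Lad1, ladinin of the anchoring filaments, was 6.73, 9.05 and 7.21 in condyle, 8.61, 2.34 and 7.60 in fossa and 5.38, 6.04 and 5.90 in whole body. With fossa 2 at background, it lay there at least 26.2-fold below the other fossa arrays. Col17a1, the transmembrane collagen of hemidesmosomes, was 3.25, 4.51 and 3.35 in condyle, 4.91, 2.89 and 3.26 in fossa and 3.30, 3.27 and 3.19 in whole body. Itga6, the alpha subunit that pairs with Itgb4 in hemidesmosomes and with another beta subunit in endothelium and nerve, was 6.10, 6.20 and 5.44 in condyle, 4.80, 5.80 and 4.27 in fossa and 4.81, 5.47 and 5.47 in whole body. Fossa 2 was the highest fossa array for Itga6. Lamb3, a chain of the epithelial laminin, was 3.93 on condyle 2 and at most 2.80 on all others, below background.

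Averaged by role, the distance of fossa 2 from the mean of fossa 1 and 3 was -4.63 log2 units for the epidermal suprabasal keratins, -3.97 for the basal keratins, -3.12 for the desmosome genes and -3.05 for the simple keratins. It was -2.58 for the regulators, -2.44 for the mucosal keratins, -1.19 for the hemidesmosome genes and -0.77 for the adherens and tight junction genes. All 8 means lay below 0, those of the basal, suprabasal and simple keratins included. The order of these means depends in part on how many dim genes each group holds. The mucosal mean joins Krt4, at 7.63 on fossa 2 against a mean of 12.15 on fossa 1 and 3, with Krt13, at 2.90 against 3.26. Grhl2 among the regulators and Lamb3 among the hemidesmosome genes were above background on no fossa array. Each of the last 2 groups also holds 1 gene at background on every array, Itgb4 and Cldn6.

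**Figure D2:**
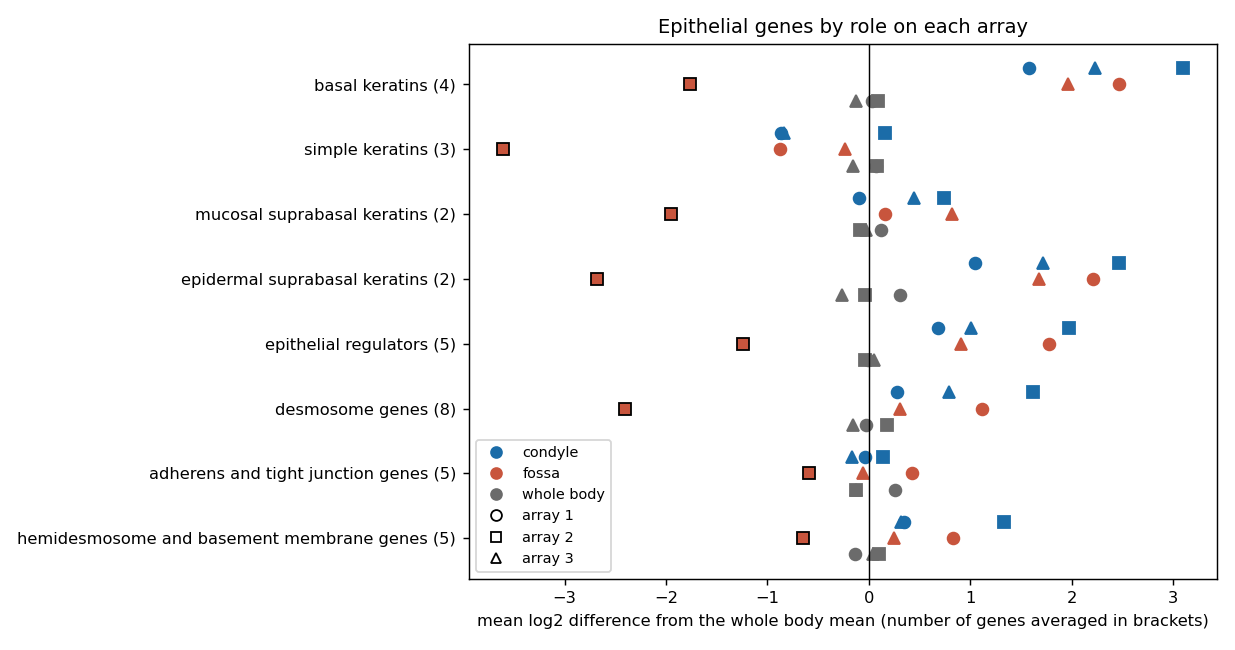
Mean log2 difference of each role group from its whole body mean, 1 point per condyle, fossa or whole body array. Fossa array 2 lies left of every other joint array in all 8 groups, from -3.61 in the simple keratins to -0.59 in the adherens and tight junction genes.

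The remaining arrays of each tissue also differed, by less. Condyle 2 was the highest condyle array for 30 of 34 genes, against 28.3% of all genes, and lay over 1 log2 unit above both others for 12 of 34, against 1.79%. Its mean shift over condyle 1 and 3 was 1.20 for the basal keratins, 1.09 for the epidermal suprabasal, 1.00 for the simple and 0.56 for the mucosal keratins. Fossa 1 stood above fossa 3 for Krt1, Krt10, Krt14 and Krt17 and below it for Krt4, Krt5, Krt8, Krt15, Krt18 and Krt19, so members of the basal layer went both ways. With 1 array on each side, these differences between captures have no replicate check.

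Set against all genes, the gap on fossa 2 was uncommon. On measured values fossa 2 lay over 2 log2 units below both other fossa arrays for 17 of the 34 epithelial genes, against 0.868% of all genes, which is 158 genes. With the background limit of fossa 2 in place of dimmer values, the counts were 16 and 0.830%, which is 151 genes. The 16 were Krt1, Krt4, Krt5, Krt10, Krt14, Krt15, Krt18, Krt19, Trp63, Esrp1, Dsp, Dsc3, Pkp1, Pkp3, Perp and Lad1, with Krt18 and Pkp3 only just past it at 2.01 and 2.03. Grhl3, at background on fossa 2, lay at least 1.39 below. Fossa 2 was the lowest fossa array for 32 of 34 genes, against 41.4% of all genes. The median gap was 1.95 over the 34 genes and -0.03 over all genes.

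**Figure D3:**
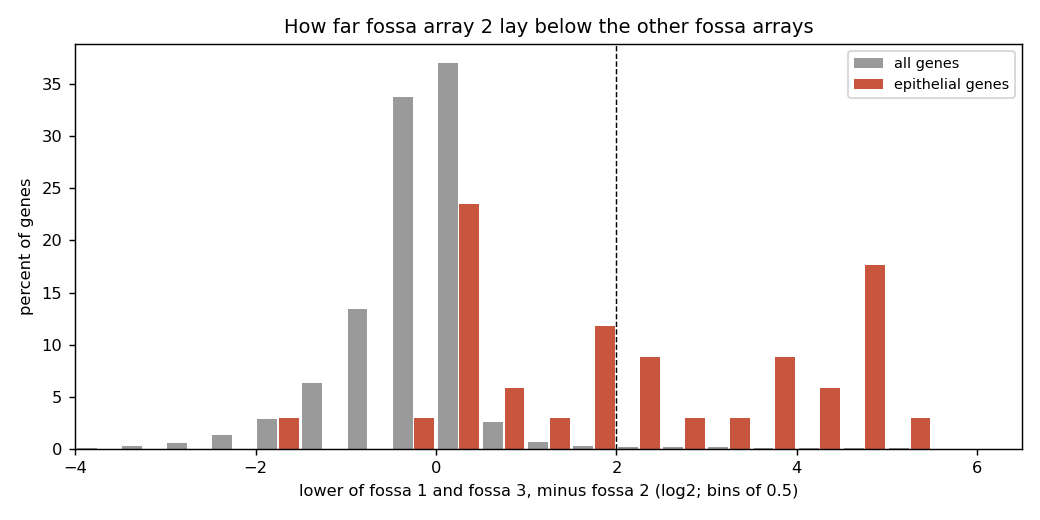
Distribution of the measured log2 gap between fossa array 2 and the lower of fossa arrays 1 and 3, in percent of genes, for all 18193 genes and for the 34 epithelial ones. All genes centre near 0, whereas 17 epithelial genes lie right of the dashed line at 2, Grhl3 among them with fossa 2 at background.

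The spread between arrays of 1 group told the same. The SD was over 1 log2 unit for 23 of 34 genes in fossa, against 5.30% of all genes, and the median SD was 1.42 against 0.22. In condyle it was over 1 for 5 of 34 genes, against 4.53% of all, with medians of 0.67 and 0.19. In whole body it was over 1 for 1 gene of 34, Dsc3, against 3.17% of all, with medians of 0.20 and 0.20. Without fossa 2 the count in fossa was 6, without condyle 3 that in condyle was 12, and without condyle 1 or 2 it was 3 or 2. Many of all genes are at background. Among genes above it on all 3 arrays of the group, the median SD was 0.38 in fossa, 0.30 in condyle and 0.30 in whole body. Epithelial genes thus varied more than most genes between captures of the same joint tissue. Between whole body samples their median SD equalled that of all genes and lay under that of genes above background.

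Against whole body, the condyle was highest above it in the basal keratins, but no difference passed the threshold with all 9 arrays. In limma's fit, with Benjamini-Hochberg adjusted p under 0.05, 0 of 34 epithelial genes were called between condyle and whole body, against 13.2% of all genes. Krt5 averaged 10.79 ± 0.83 (SD, n = 3) in condyle and 6.48 ± 0.38 in whole body, a difference of 4.31 ± 1.32 (SE) with adjusted p = 0.0772. In other roles the largest differences were those of Trp63 at 2.95 ± 1.09 (adjusted p = 0.13), Krt1 at 2.66 ± 1.33 (0.24), Dsc3 at 2.34 ± 0.97 (0.171) and Lad1 at 1.89 ± 1.56 (0.433). Of the basal keratins, Krt14 differed by 2.49 ± 1.28 (0.251) and Krt15 by 1.96 ± 1.31 (0.349). Krt18 lay lower in condyle by -1.56 ± 0.57 (0.126). Krt4 at 0.53 ± 1.21 (0.772) and Cdh1 at 0.80 ± 0.69 (0.449) were far from the threshold. At an unadjusted p under 0.05 limma gave 4 genes, Krt5, Krt18, Trp63 and Dsc3. The alternatives that kept all 9 arrays called 0 genes or 1.

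The fit pools the spread of all 3 groups, and the SE of Krt5 was 1.32 with fossa 2 and 0.43 without it. Since fossa 2 was singled out by these genes' own values, calls made without it are descriptive and add no independent support. Without fossa 2, 6 of 34 genes were called in condyle against whole body, beside 12.6% of all genes. Krt5 was higher by 4.31 ± 0.43 or 19.9-fold (adjusted p = 0.00354), Krt14 by 2.49 ± 0.31 or 5.62-fold (0.00696) and Krt15 by 1.96 ± 0.46 or 3.90-fold (0.0424). Trp63 was higher by 2.95 ± 0.56 or 7.73-fold (0.0233) and Krt1 by 2.66 ± 0.55 or 6.30-fold (0.0306), while Krt18 differed by -1.56 ± 0.20 and was 2.94-fold lower (0.00792). The 5 genes higher stand against 9.09% of all genes and the 1 lower against 3.52%. A fit of the condyle and whole body arrays alone called 5 of these 6, all but Krt15, against 12.3% of all genes. The share called lay near that of all genes in both fits, so the count itself does not set the epithelial genes apart. Without condyle 1 and with fossa 2 kept, 1 gene was called, Epcam.

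Ranges tell the same comparison without a model. The condyle arrays all lay above the whole body arrays for 13 of 34 epithelial genes, against 19.8% of all genes: Krt1, Krt5, Krt10, Krt14, Krt15, Trp63, Grhl3, Esrp1, Pkp1, Pkp3, Jup, Perp and Lad1. They all lay below for 2, Krt18 and Cldn6, the second at background, against 33.4% of all genes. The median difference was 0.59 over the 34 genes and -0.03 over all genes, and 27 of 34 were above 0.

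Between fossa and whole body 4 of 34 genes were called with all 9 arrays, against 19.6% of all genes. Krt18 was lower in fossa, 4.95 ± 1.24 (SD, n = 3) against 7.47 ± 0.16, by -2.52 ± 0.57 (SE, adjusted p = 0.0219). Epcam was lower on its brighter probe set by -1.38 ± 0.13 (0.000772), but not on its other, which differed by 0.32. Cdh3 was higher in fossa, at least 2.26-fold (0.0283), with all whole body arrays at background on its brighter probe set. Its other probe set read 3.67 on whole body 1, above background, and with a common floor the call was lost (adjusted p = 0.291). Itgb4 was called higher by 0.36 ± 0.10 (0.0407) with every array at background, which is a bound on both sides and gives no fold. The 2 genes higher stand against 3.99% of all genes and the 2 lower against 15.6%. Leaving out any 1 whole body array left 1 call, Epcam. Krt18 then had an adjusted p of 0.0562 to 0.0615, and after quantile normalization one of 0.060009.

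The other genes were not called. Krt5 differed by 2.23 ± 1.32 (adjusted p = 0.285), Trp63 by 1.40 ± 1.09 (0.414), Krt1 by 1.20 ± 1.33 (0.575) and Krt4 by -0.92 ± 1.21 (0.639). Dsg2 differed by -1.80 ± 0.69 (0.117) and Col17a1 by 0.43 ± 0.56 (0.634). For Krt5, Krt1 and Trp63 the fossa mean stands for none of its arrays, since fossa 1 and 3 lay above all whole body arrays and fossa 2 below them.

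Without fossa 2, 10 of 34 genes were called in fossa against whole body, beside 15.9% of all genes. These calls too follow an exclusion guided by the same genes and are descriptive. Krt5 was higher by 3.91 ± 0.48 or 15.1-fold (adjusted p = 0.00563), Krt14 by 2.87 ± 0.35 or 7.29-fold (0.00554) and Krt15 by 2.16 ± 0.51 or 4.47-fold (0.0388). Pkp1 was higher by 2.86 ± 0.66 or 7.28-fold (0.0369), Krt1 by 2.83 ± 0.62 or 7.11-fold (0.0307) and Trp63 by 2.68 ± 0.63 or 6.41-fold (0.0383). Cdh3 was at least 2.84-fold higher (0.017), and Itgb4 was again called at background. Krt18 differed by -1.80 ± 0.23 and was 3.49-fold lower (0.00616), and Epcam differed by -1.34 ± 0.15 (0.00427). Of the 10 genes, 8 were called higher, against 3.28% of all genes, and 2 lower, against 12.6%. The median difference moved from -0.12 with all 9 arrays to 0.72, while that of all genes stayed at -0.11 and -0.12.

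The arrays of fossa lay above all whole body arrays for 3 of 34 genes, against 11.1% of all genes, and below for 6, against 31.1%. Without fossa 2 they lay above for 20 of 34, against 14.5%, and below for 7, against 36.8%. This leaves 2 fossa arrays against 3, where ranges separate more readily.

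**Figure D4:**
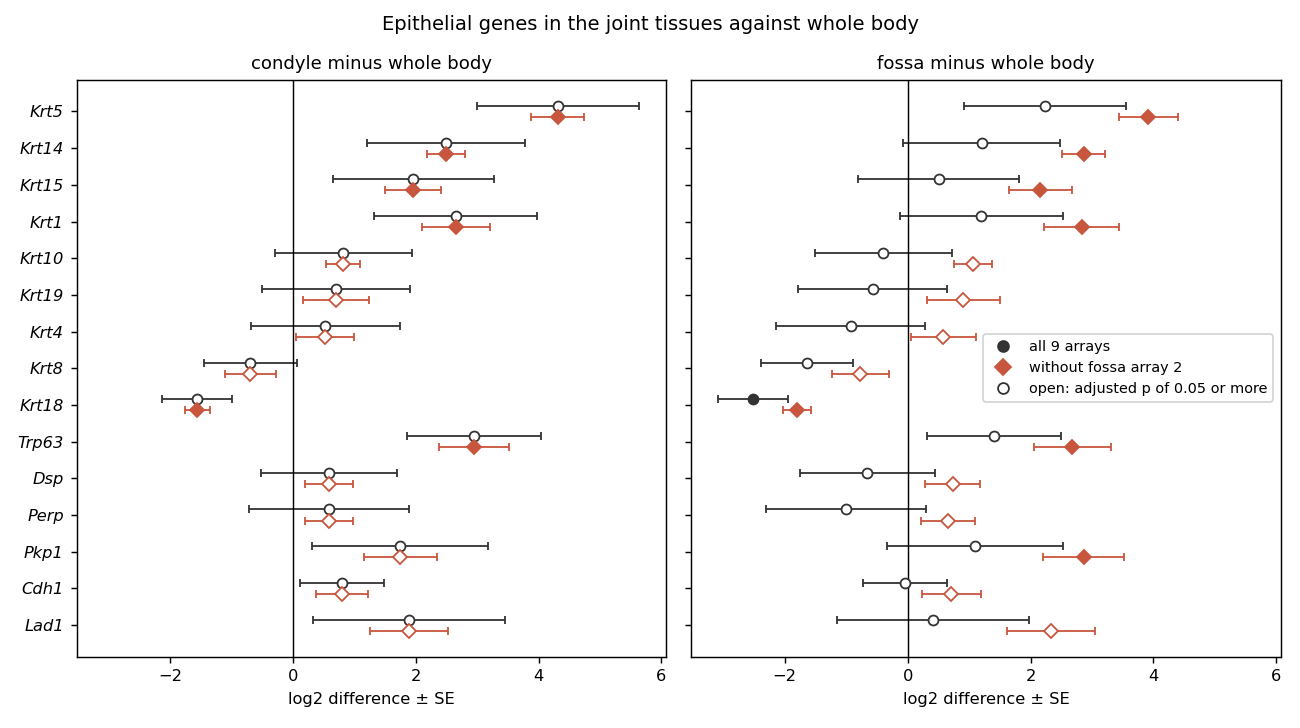
Log2 difference ± SE of the epithelial genes between each joint tissue and whole body, with all 9 arrays and without fossa array 2. Leaving out that array moves the fossa's Krt5 from 2.23 ± 1.32 to 3.91 ± 0.48.

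Condyle and fossa were set against each other as the test of whether the joint tissues differ in these genes. With all 9 arrays 4 of 34 genes were called, against 18.9% of all genes. Jup was higher in condyle, at least 2.27-fold, by 1.29 ± 0.36 on measured values (adjusted p = 0.0488), with 2 of 3 fossa arrays above background. Epcam was higher in condyle on its brighter probe set by 1.17 ± 0.13 (0.00216), and differed by -0.03 on the other. Cdh3 was lower in condyle, at least 2.73-fold higher in fossa (0.0302), with 1 of 3 condyle arrays above background. Itgb4, at background on all arrays, was called by -0.40 ± 0.10 (0.0303). The 2 genes higher in condyle stand against 16.8% of all genes and the 2 lower against 2.13%. Leaving out condyle 1, 2 or 3 left Epcam alone, and leaving out whole body 2 left Epcam and Itgb4. After quantile normalization none of the 4 was called (Epcam 0.118, Cdh3 0.0636), and with a common floor Cdh3 was not (0.263).

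None of the keratins was called between the joint tissues on its brightest probe set. Over every probe set Krt13 was, higher in condyle by 0.18 (adjusted p = 0.0235) on a set at background on all 9 arrays. With all 9 arrays Krt5 differed by 2.08 ± 1.32 (adjusted p = 0.329), Krt1 by 1.46 ± 1.33 (0.503), Krt4 by 1.45 ± 1.21 (0.462), Krt19 by 1.27 ± 1.21 (0.523) and Krt18 by 0.96 ± 0.57 (0.293). Esrp1 differed by 1.99 ± 1.24 (0.322), Perp by 1.59 ± 1.30 (0.453) and Lad1 by 1.48 ± 1.56 (0.568). All 8 were smaller without fossa 2: Krt5 differed by 0.40 ± 0.48, Krt18 by 0.25 ± 0.23, Esrp1 by 0.45 ± 0.57, Krt1 by -0.17 ± 0.62, Krt4 by -0.05 ± 0.53, Krt19 by -0.20 ± 0.59, Perp by -0.08 ± 0.44 and Lad1 by -0.44 ± 0.72. The median over the 34 genes was 0.98 with all 9 arrays, against 0.21 over all genes, and -0.05 without fossa 2, against 0.21. Without fossa 2, 4 genes were called, beside 15.8% of all genes: Cdh3, Epcam, Itgb4 and Itga6, the last higher in condyle by 1.38 ± 0.33 (0.0409) on its brighter probe set, while its other differed by -0.24. Of the 4, 2 were higher, against 14.2% of all genes, and 2 lower, against 1.68%.

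A moderated F test for any difference among the 3 groups called 4 of 34 genes, Krt18, Cdh3, Epcam and Itgb4, against 28.1% of all genes. The condyle arrays lay above all fossa arrays for 5 of 34 genes, against 33.9% of all genes, and below for 3, against 15.8%. Over all genes, the split of calls depends on the scaling: 70.9% of genes called between condyle and whole body were higher in condyle, 20.4% of those between fossa and whole body were higher in fossa and 88.8% of those between condyle and fossa were higher in condyle. After quantile normalization these shares were 50.4%, 47.4% and 58.1%, and with each array centred on its median the second was 44.7%.

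Other genes of the epithelium outside the 35 were read from 5 lists. Of 79 measured, 22 lay over 2 log2 units lower on fossa 2 than on both other fossa arrays with the background limit in place. The share of all genes was 0.830%. By list the counts were 12 of 19 cornified envelope genes, 5 of 13 further keratins, 2 of 23 further junction genes, 3 of 12 further regulators and 0 of 12 further hemidesmosome genes. Loricrin (Lor), the main protein of the cornified envelope, was 11.33, 13.26 and 12.22 in condyle, 13.001, 8.35 and 12.30 in fossa and 11.84, 12.23 and 11.88 in whole body. Ivl, involucrin of an early stage of the envelope, was 4.99, 9.16 and 5.16 in condyle, 9.91, 2.56 and 5.97 in fossa and 3.72, 3.04 and 2.91 in whole body. It thus separated condyle 2 and fossa 1 from the other captures more widely than Lor did. Over the list, condyle 2 lay 1.39 above condyle 1 and 3, and fossa 1 lay 0.84 above fossa 3.

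Of the 79 genes, 6 were called between condyle and whole body, against 13.2% of all genes, 11 between fossa and whole body, against 19.6%, and 4 between condyle and fossa, against 18.9%. Among the further keratins 1 of 13 was called with all 9 arrays, Krt16 in fossa, which was at background throughout and not called without fossa 2 (adjusted p = 0.0975). Without fossa 2, Krt77 was higher than whole body by 3.06 ± 0.56 (adjusted p = 0.0212) in condyle and 2.92 ± 0.63 (0.0299) in fossa, and Krt6a by 2.13 ± 0.41 (0.0249) in condyle. Krt77 is a keratin of suprabasal skin and Krt6a one of hair follicle and oral epithelium. In the cornified envelope list Lce1a1, a late envelope protein, was called lower than whole body in condyle, at least 1.72-fold (adjusted p = 0.033), and in fossa, at least 1.48-fold (0.0227), with 1 condyle array and no fossa array above background. Without fossa 2 the fossa call was lost (adjusted p = 0.067). No other of the 19 was called in any comparison of all 9 arrays.

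Of the 23 further junction genes 1 was called higher and 1 lower in condyle than in whole body, against 9.34% and 3.84% of all genes. In fossa 0 were higher and 5 lower, against 3.99% and 15.6%, and 2 were higher and 0 lower in condyle than in fossa, against 16.8% and 2.13%. Pkp2, a plakophilin also of heart muscle, was lower than whole body by -2.99 ± 0.47 (adjusted p = 0.00886) in condyle and -2.38 ± 0.47 (0.0137) in fossa. Rab25, a small GTPase of epithelial traffic, was at least 2.24-fold higher in condyle (0.0455), with 1 whole body array above background, but was not called without fossa 2 (adjusted p = 0.0665). Cldn3, a claudin of simple epithelium, and F11r, a junctional adhesion protein, were lower in fossa than in whole body, at least 1.57-fold (1.92e-05) and by -0.97 ± 0.25 (0.0335). They were also the 2 genes higher in condyle than in fossa, at least 1.52-fold (0.000174) and by 1.02 ± 0.25 (0.0292). All fossa arrays were at background for Cldn3.

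Of the 12 further regulators Fgfr2, the receptor for mesenchymal growth factors whose variants differ between epithelium and mesenchyme, was higher than whole body by 3.76 ± 0.63 (adjusted p = 0.0108) in condyle and 2.91 ± 0.63 (0.019) in fossa. It did not share the gap on fossa 2, where it was 8.24 against 8.02 and 7.99. Without fossa 2 its fossa difference was 2.84 ± 0.76 and no longer called (adjusted p = 0.0547). Ehf, an Ets factor of epithelium, was at least 1.65-fold lower in fossa (0.00752), with all fossa arrays at background. Among the 12 further hemidesmosome genes, Plec, the plakin plectin, was higher in condyle by 1.92 ± 0.31 (0.00941), Dst, another plakin with forms in muscle and nerve, in condyle by 1.41 ± 0.35 (0.0411) and in fossa by 1.25 ± 0.35 (0.0475), the last not called without fossa 2 (adjusted p = 0.0901). Fras1, a basement membrane protein, was at least 1.81-fold lower in fossa than in whole body (0.00139), with all fossa arrays at background on the probe set used. Fras1 and the laminin receptor subunit Itga3 were higher in condyle than in fossa, at least 1.96-fold (0.00161) and by 1.21 ± 0.25 (0.0173).

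Markers of other cell types also differed between the captures, several lists in the opposite direction to the epithelial genes. Their part in the result was not tested. Of 117 such genes measured in 11 lists, 0 lay over 2 log2 units lower on fossa 2 than on the other fossa arrays with the background limit in place. This lies near the 0.830% of all genes. Genes at background on fossa 1 or 3 could not show such a gap. Above it on both were 2 of 10 endothelium, 5 of 9 erythroid and 1 of 9 fetal liver genes, but 10 of 11 cartilage and 7 of 7 bone genes. The erythroid gene Hemgn, named after its values were seen, passed 2 on measured values alone, at 4.69, 2.08 and 4.14 in fossa, with fossa 2 at background. Fossa 2 was the highest fossa array for 11 of 12 skeletal muscle genes, 9 of 10 neuron and glia genes, 9 of 11 cartilage genes and 6 of 7 bone genes. The shares of all genes with fossa 2 highest or condyle 2 lowest were not counted, so such counts are descriptive only. Its mean distance from fossa 1 and 3 was 1.90 for neuron and glia, 1.14 for bone, 1.11 for cartilage, 1.07 for skeletal muscle, 0.50 for endothelium and 0.22 for mesenchyme. Condyle 2, the condyle array with the highest epithelial levels, was lowest for 11 of 12 muscle genes, 8 of 10 neuron and glia genes and 5 of 7 bone genes, by means of -1.35, -1.89 and -1.48 from the other condyle arrays. Cartilage genes went the other way: condyle 2 was the highest condyle array for 9 of 11, against 28.3% of all genes, by a mean of 0.73.

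Markers of internal epithelia were mostly at background in the joint and so could not show a gap on fossa 2: 0 of 12 gut, lung and kidney genes and 2 of 12 gland, airway and ear genes were above background on both fossa 1 and 3. The gut, lung and kidney list averaged 2.51 to 2.57 in condyle, 2.65 to 2.84 in fossa and 3.80 to 4.03 in whole body. The gland, airway and ear list averaged 2.79 to 3.11 in condyle, 3.04 to 3.38 in fossa and 3.19 to 3.37 in whole body. Fetal liver genes averaged 2.80 to 4.29 in the joint and 10.97 to 11.43 in whole body. Of the 9, only Ttr was above background on both fossa 1 and 3. It read 9.81, 11.77 and 15.23 in condyle and 5.58, 4.24 and 15.06 in fossa, so the joint means of this list rest largely on that gene.

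**Figure D5:**
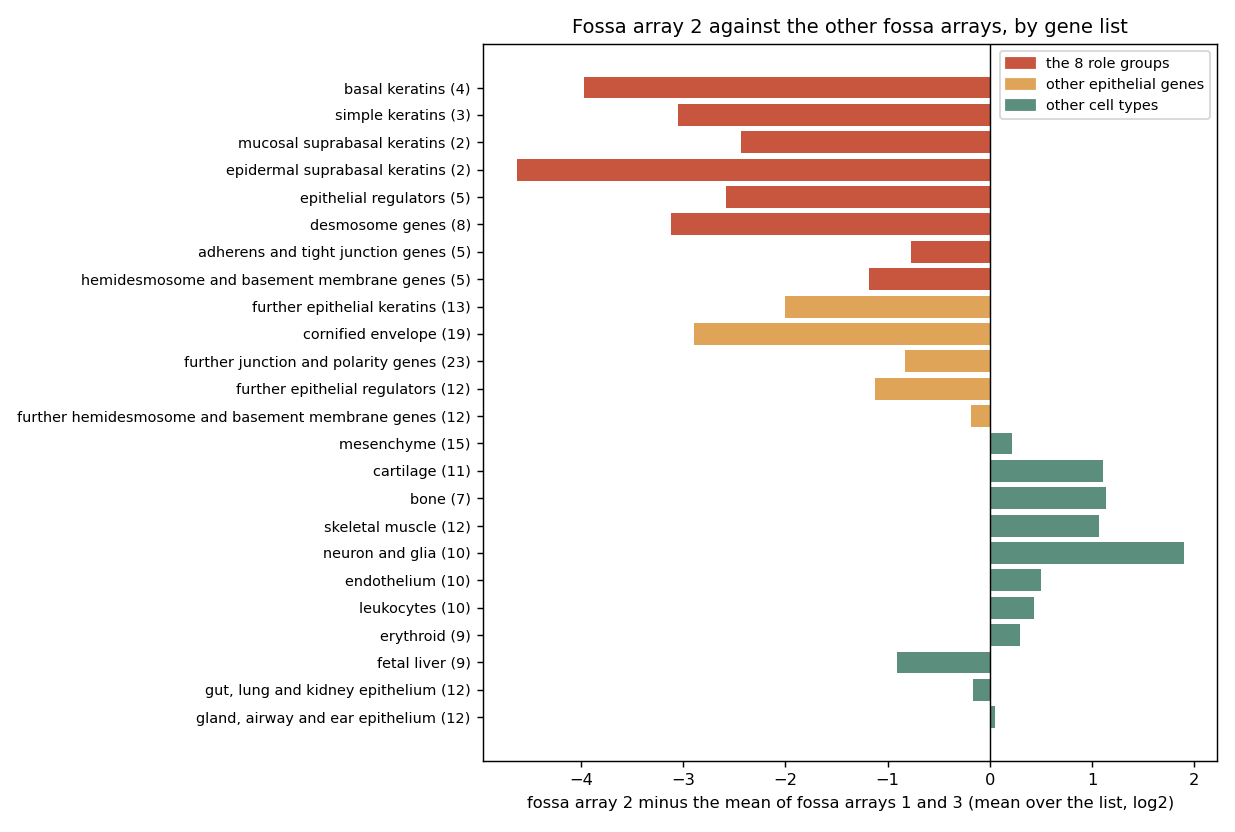
Mean log2 distance of fossa array 2 from the mean of fossa arrays 1 and 3 for the 8 role groups, the 5 other epithelial lists and the 11 lists of other cell types, with the number of genes in brackets. The 8 role groups and the 5 other epithelial lists lie left of 0, down to -4.63. Of the lists of other cell types, neuron and glia genes lie farthest right at 1.90 and fetal liver genes farthest left at -0.91. The fetal liver value rests largely on Ttr, at 5.58, 4.24 and 15.06 on fossa arrays 1 to 3.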

How the data were processed

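Each array has 1 column of deposited intensities, linear in scale as their values show, which the authors had summarised per probe set. Of tools, the submitters' processing notes give limma without a version. The authors' background correction and normalization are not given in the sources used here. Their scaling was kept, and log2 was taken of every intensity after setting a floor of 1.

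Probe sets with 1 symbol in the platform annotation, 34945 of 45101, were named through it, and a gene was read from its brightest probe set on average. Of 87 genes in the 5 further epithelial lists 79 were measured, and the others are not analysed here. All 3 groups were fitted together in limma (version 3.58.1, R version 4.3.3), with 6 residual degrees of freedom, and Benjamini-Hochberg adjustment over all 18193 genes. The fit was tested on simulated data. Where a gene was at or under the background limit on an array of the dimmer group, its fold is a lower bound, with the limit put in place of such values.

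Per-array values are printed for the keratins, Trp63 and the 3 members with the widest range in each other role, with further members where a result turns on them. Differences are printed for members past the threshold and for the largest of each role and comparison, and from the other lists for up to 3 genes past it. The values of Sfn, Dsc3, Jup, Lor, Ivl and the second probe sets were chosen for print after they were seen. The members, roles and lists were chosen with earlier results of these data known. Alternatives were other scalings, a common floor, a filter on dim genes, every probe set, fits of 2 groups, another variance model, the replicate number as a block and each array left out. Fossa 2 left out together with another scaling or the floor was added after the data were seen.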

Additional observations from a re-analysis of the deposited data

Results flagged for a closer look

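The difference of condyle from whole body was not the same as that of fossa for 4 epithelial genes, by limma's test of condyle minus fossa, against 18.9% of all genes. The plakoglobin gene Jup gave 1.29 on the log2 scale, P-cadherin Cdh3 gave -1.51 on measured values with 2 of 3 condyle arrays at background (at least 2.73-fold), Epcam gave 1.17 and Itgb4 gave -0.40. For Epcam the 2 probe sets disagree, and Itgb4 was at background on all 9 arrays. For Jup the call was lost without fossa 2, where it stood at 0.98 ± 0.34 (SE, adjusted p = 0.104), while Cdh3, Epcam and Itgb4 were still called. Cdh3 was not called with a common floor (adjusted p = 0.263), after quantile normalization (0.0636) or with the replicate block (0.0569), nor Epcam after quantile normalization (0.118). With 3 arrays in each group, no test for a single array far from its group was made.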

How the results depend on the processing

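With 3 arrays a group, 1 array decides most of these results, and dim genes such as Itgb4, Cldn6 and Grhl2 give bounds only. Between condyle and whole body, 0 epithelial genes were called with all arrays, 1 without genes at background (Krt5), 1 over every probe set (Grhl2), 5 in a fit of the 2 groups compared and 0 to 6 when each array was left out. Between fossa and whole body the count was 4, 2 with a common floor, 7 over every probe set, 1 in a fit of 2 groups and 1 to 10 with an array left out. Between condyle and fossa it was 4, with 0 after quantile scaling, 2 under the common floor, 8 over every probe set, 1 in a fit of 2 groups and 1 to 4 with an array left out. The F test called 4, with 2 after quantile scaling, 2 under that floor, 8 over every probe set and 1 to 9 with an array left out. Without fossa 2, alternatives added after the data were seen called 4, 11 and 1 in these 3 comparisons after quantile normalization and 8 in the F test, 6, 11 and 4 with each array centred on its median and 11 in the F test, and 4, 4 and 1 with the common floor.

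Whether the replicate numbers pair the samples is not in the labels, and the values do not show pairing. Deviations of same-numbered condyle and fossa arrays correlated at -0.33, -0.44 and 0.15 across genes, and condyle 1 went best with fossa 2 (0.44). Deviations within a group are not independent, so these correlations cannot settle which samples share an embryo. With the replicate number as a block the counts were 0, 1 and 1 in the 3 comparisons and 1 in the F test, Epcam each time.

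The median over the epithelial genes for fossa against whole body was -0.12, and it turned to 0.0392 after quantile normalization and 0.0188 with centring, with a range of -0.26 to 0.72 with an array left out. For condyle against fossa it was 0.98, and -0.05 to 1.59 with an array left out. Over every probe set the median for condyle against whole body was 0.01, against 0.59 for genes. The number of genes with an SD over 1 was 2 to 12 in condyle, 6 to 25 in fossa and 0 to 1 in whole body with an array left out, and 2 in whole body over every probe set.

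Of the differences of named genes, 558 values under alternatives kept direction and side of the threshold, 51 lost the call, 20 gained it and 14 changed sign. Itgb4 for condyle against whole body turned to 0.0036 after quantile normalization and 0.079 with centring. With an array left out, Cdh3 in that comparison ran from -0.0654 to 0.0466. For fossa against whole body Col17a1 ran from -0.18 to 0.83, Krt4 from -2.06 to 0.58, Krt15 from -0.35 to 2.16 and Pkp1 from -0.17 to 2.86. For condyle against fossa Krt1 ran from -0.17 to 2.46, Krt19 from -0.20 to 2.07, Krt4 from -0.0529 to 2.59, Lad1 from -0.44 to 2.70 and Perp from -0.0751 to 2.52. The cause of these changes was not tested beyond which array was left out.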

Other observations

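The 40 genes with the widest gap between fossa 2 and the other fossa arrays, chosen after the values were seen, hold 8 of the epithelial genes followed here. The widest gap was 6.85 log2 units, or 115-fold, in Lce3f, a late cornified envelope gene, which read 8.75, 13.10 and 9.57 in condyle, 13.77, 5.72 and 12.57 in fossa and 10.44, 10.74 and 11.002 in whole body. Stfa3, a stefin protease inhibitor, was 53.1-fold lower on fossa 2 and Calm4, a calmodulin-like protein of skin, 51.5-fold. Krt6a was at least 47.5-fold lower and Sprr1b, a small proline-rich envelope protein, at least 32.8-fold, both at background on fossa 2. Hrnr, a filaggrin-like protein, was 26.9-fold lower, Dmkn, a secreted protein of differentiated epidermis, 27.6-fold and Krtdap, a keratinocyte differentiation protein, 25.9-fold. The gene of another Grainyhead-like factor, Grhl1, read 6.80, 8.39 and 6.89 in condyle, 8.79, 2.56 and 7.04 in fossa and 6.91, 6.70 and 6.84 in whole body, with fossa 2 at background, whereas Grhl2 was dim on every array.

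Sox2, a factor of sensory, oral and airway epithelium and of nerve, ran against the other epithelial regulators, with 5.55, 8.95 and 8.43 in fossa and 6.94, 6.44 and 8.90 in condyle. Nefl, a neurofilament gene, was 4.47, 10.12 and 7.32 in fossa and 9.98, 5.995 and 7.45 in condyle, lowest where the keratins were high on fossa 1 and condyle 2.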
